A study of Homo sapiens with 12 samples.

Results

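The 7 human genes of the Sprouty family (SPRY1, SPRY2, SPRY3 and SPRY4) and the SPRED family (SPRED1, SPRED2 and SPRED3) were followed through an RNA-seq study of an ERK inhibitor. They were chosen by name, as the rows of the deposited tables that carry these symbols, and make up 7 of the 58735 genes listed. All 7 passed the filter on low counts, as did 16218 genes in all. The study used 2 human anaplastic thyroid carcinoma cell lines, a dedifferentiated thyroid cancer. The genotype given for KHM-5M is BRAF V600E, an activating change in the kinase BRAF, and its medium was RPMI-1640. For TTA-1 the genotype is BRAF wild type and the medium DMEM. Both media held 10% fetal bovine serum, and each line received either 1 µM GDC-0994 (ravoxertinib, an inhibitor of ERK1 and ERK2) or its vehicle DMSO for 24 hours. This gave 4 groups of 3 libraries. Each genotype is represented by 1 line in its own medium, so that genotype, line and medium cannot be told apart.

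Sprouty and SPRED proteins are inhibitors of receptor tyrosine kinase signalling whose genes are switched on by the pathway they restrain. Sprouty proteins act between receptors and RAF, through adaptors such as GRB2 and ubiquitin ligases such as CBL. SPRED proteins carry an EVH1 domain that binds neurofibromin (NF1) and bring this RAS GTPase-activating protein to the membrane. Both families share a cysteine-rich C-terminal domain, and SPRED1 loss-of-function variants cause Legius syndrome. The comparisons address how far the RNA of each member depended on 24 hours of ERK inhibitor, and whether that differed between the lines.

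Promoter sequence from RefSeq (GRCh38.p14) is shown first for the genes whose RNA moved most, from windows chosen because they held motif matches. Windows of 300 bases, from 250 before to 50 after a start site, were found for all 7 genes, 13 windows in total. Each was searched on both strands for 6 motifs, and the same search was made in 34961 promoter windows. Capitals mark the matches, and each sequence is written 5′ to 3′ on the strand of its gene. The first window, chr5:142325043-142325342 on the plus strand, belongs to SPRY4-AS1, an antisense RNA gene. Its start lies 272 bases from the outermost RefSeq start of SPRY4 on the opposite strand, and its window begins 22 bases upstream of that start, inside the longer SPRY4 gene of GENCODE 29. It holds the octamer TGAATGGA, bound by the repressor Capicua (CIC), on its plus strand. The 7 bases TGAATGG, which are part of that octamer, occur 4 times, and 3 of these lie within the 250 bases upstream of the outermost SPRY4 start, beginning 30, 82 and 137 bases from it. This shorter form was chosen after the sequence was seen.
SPRY4-AS1 window: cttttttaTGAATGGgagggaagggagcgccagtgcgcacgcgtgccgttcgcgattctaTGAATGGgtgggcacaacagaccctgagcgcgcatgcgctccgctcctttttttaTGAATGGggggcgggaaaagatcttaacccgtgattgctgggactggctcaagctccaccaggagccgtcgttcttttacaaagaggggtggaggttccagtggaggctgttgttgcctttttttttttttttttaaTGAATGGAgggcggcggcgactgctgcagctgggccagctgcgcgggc
The second window is a SPRED3 start at chr19:38389541-38389840 on the plus strand. It holds the other Capicua octamer, TGAATGAA, once, and the AP-1 site TGANTCA once. The reverse complement of TGAATGA, a shorter form also chosen after the sequence was seen, is in capitals at the third match.
SPRED3 window: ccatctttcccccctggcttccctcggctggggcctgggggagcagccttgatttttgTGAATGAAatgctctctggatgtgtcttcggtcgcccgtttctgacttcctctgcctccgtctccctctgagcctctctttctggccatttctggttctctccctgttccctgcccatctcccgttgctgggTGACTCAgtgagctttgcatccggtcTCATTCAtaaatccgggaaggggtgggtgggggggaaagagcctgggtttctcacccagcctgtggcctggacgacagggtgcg
The third window is a SPRY2 start at chr13:80341077-80341376 on the minus strand, with 1 ETS site CCGGAA, which is bound by ETS-family transcription factors.
SPRY2 window: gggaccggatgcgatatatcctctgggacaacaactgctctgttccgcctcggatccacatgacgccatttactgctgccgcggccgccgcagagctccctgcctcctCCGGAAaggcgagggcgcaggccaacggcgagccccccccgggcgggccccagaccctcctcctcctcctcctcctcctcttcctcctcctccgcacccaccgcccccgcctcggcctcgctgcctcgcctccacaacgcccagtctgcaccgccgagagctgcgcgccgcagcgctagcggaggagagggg
At least 1 TGAATGGA was found in 1.03% of all windows and at least 1 TGAATGAA in 1.66%. At least 1 TGAATGG was found in 3.21% of windows. It occurred 4 or more times in 2 of the 34961 windows (0.00572%), which include the SPRY4-AS1 window. The threshold of 4 was taken from that window, so this share does not measure how unusual the window is. CCGGAA was found in 17.25% of windows and, among the members, in 1 window each of SPRY1 and SPRY2. TGANTCA was found at least 1 time in 7.68% of windows and at least 2 times in 0.518%. A SPRED2 window at chr2:65366729-65367028 held it 2 times. TGAATGA was found at least 1 time in 4.02% of windows and at least 2 times in 0.358%, among them the SPRED3 window shown. Both thresholds of 2 were taken from these windows, so those shares do not measure how unusual they are. The CREB site TGACGTCA (1.85% of windows) and the E-box CACGTG (7.27%) were in none of the 13 windows of the members. The single window listed under SPRY4, chr5:142324198-142324497, belongs to a start 774 bases further into the gene than the outermost one, and held none of the 6 motifs. The SPRED3 window chr19:38388447-38388746 and the SPRY2 windows chr13:80340059-80340358 and chr13:80339610-80339909, which are not printed, held none either. Each share is per window, so a gene with several windows has more chances of a match. A match describes the letters only, and binding was not measured.

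Total counts ranged from 14952970 to 18389915 per library. The labels give the libraries of a group as triplicates without saying that they came from separate cultures, so p-values measure the spread between these libraries, which may be technical. The share of counts from mitochondrially encoded genes was 2.88 to 3.31% in DMSO and 3.90 to 4.32% under GDC-0994 in KHM-5M, and 4.14 to 4.50% and 4.05 to 4.89% in TTA-1. The thyroid follicular markers TG, TSHR, NKX2-1 and SLC5A5 stayed below 1 CPM (counts scaled to library size) in every library. PAX8 averaged 210.2 CPM in untreated and 120.2 in treated KHM-5M cells, and 3.59 and 3.65 in the TTA-1 groups. The summed level of 12 markers of blood, endothelium, C cells and melanocytes stayed under 4 CPM for each cell type in each library.

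In DMSO the family was more abundant in KHM-5M. The summed level of the 7 genes was 59.7 ± 0.928 FPKM (counts scaled to gene length and library size, mean ± SD, n = 3) in KHM-5M and 17.6 ± 0.0597 in TTA-1. The 4 Sprouty genes made up most of that gap, at 35.8 ± 0.624 FPKM against 3.60 ± 0.206, while the 3 SPRED genes summed to 23.9 ± 0.318 and 14.0 ± 0.201. Under GDC-0994 the sum of the 7 was 17.9 ± 0.391 FPKM in KHM-5M and 13.6 ± 0.829 in TTA-1. The sum in treated KHM-5M lay near that in untreated TTA-1, but its parts did not. The Sprouty genes summed to 6.73 ± 0.144 FPKM in treated KHM-5M, above untreated TTA-1, and the SPRED genes to 11.2 ± 0.460, below it. FPKM divides by gene length, here the length of all annotated exons of a gene (3038 bases for SPRY2 to 9019 for SPRY3). Which transcripts were in use was not determined, so levels of different genes, their order and their sums are approximate. The spread between libraries does not cover this error. In bulk RNA, fewer cells that express a gene and less RNA per cell cannot be told apart.

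The order of the levels differed between the lines. In KHM-5M DMSO, SPRY2 led with 23.5 ± 0.626 FPKM, followed by SPRED2 (10.8 ± 0.391), SPRED1 (9.72 ± 0.280), SPRY4 (6.80 ± 0.361), SPRY1 (5.20 ± 0.507), SPRED3 (3.31 ± 0.193) and SPRY3 (0.265 ± 0.0142). No neighbours in this order overlapped in their libraries. In TTA-1 DMSO, SPRED2 led with 10.4 ± 0.621 FPKM, followed by SPRED1 (3.52 ± 0.504), SPRY4 (1.66 ± 0.151), SPRY2 (1.16 ± 0.0936), SPRY1 (0.641 ± 0.164), SPRED3 (0.152 ± 0.0607) and SPRY3 (0.141 ± 0.0478). Here SPRED3 and SPRY3 overlapped and were not separated. Under GDC-0994, SPRED1 and SPRED2 overlapped at the top of the order in KHM-5M, and SPRY4, SPRY3 and SPRED3 formed a group at its foot in which neighbours overlapped. In treated TTA-1 cells SPRED2 still led at 9.08 ± 0.798 FPKM, and SPRY1 and SPRY4 overlapped.

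**Figure D1:**
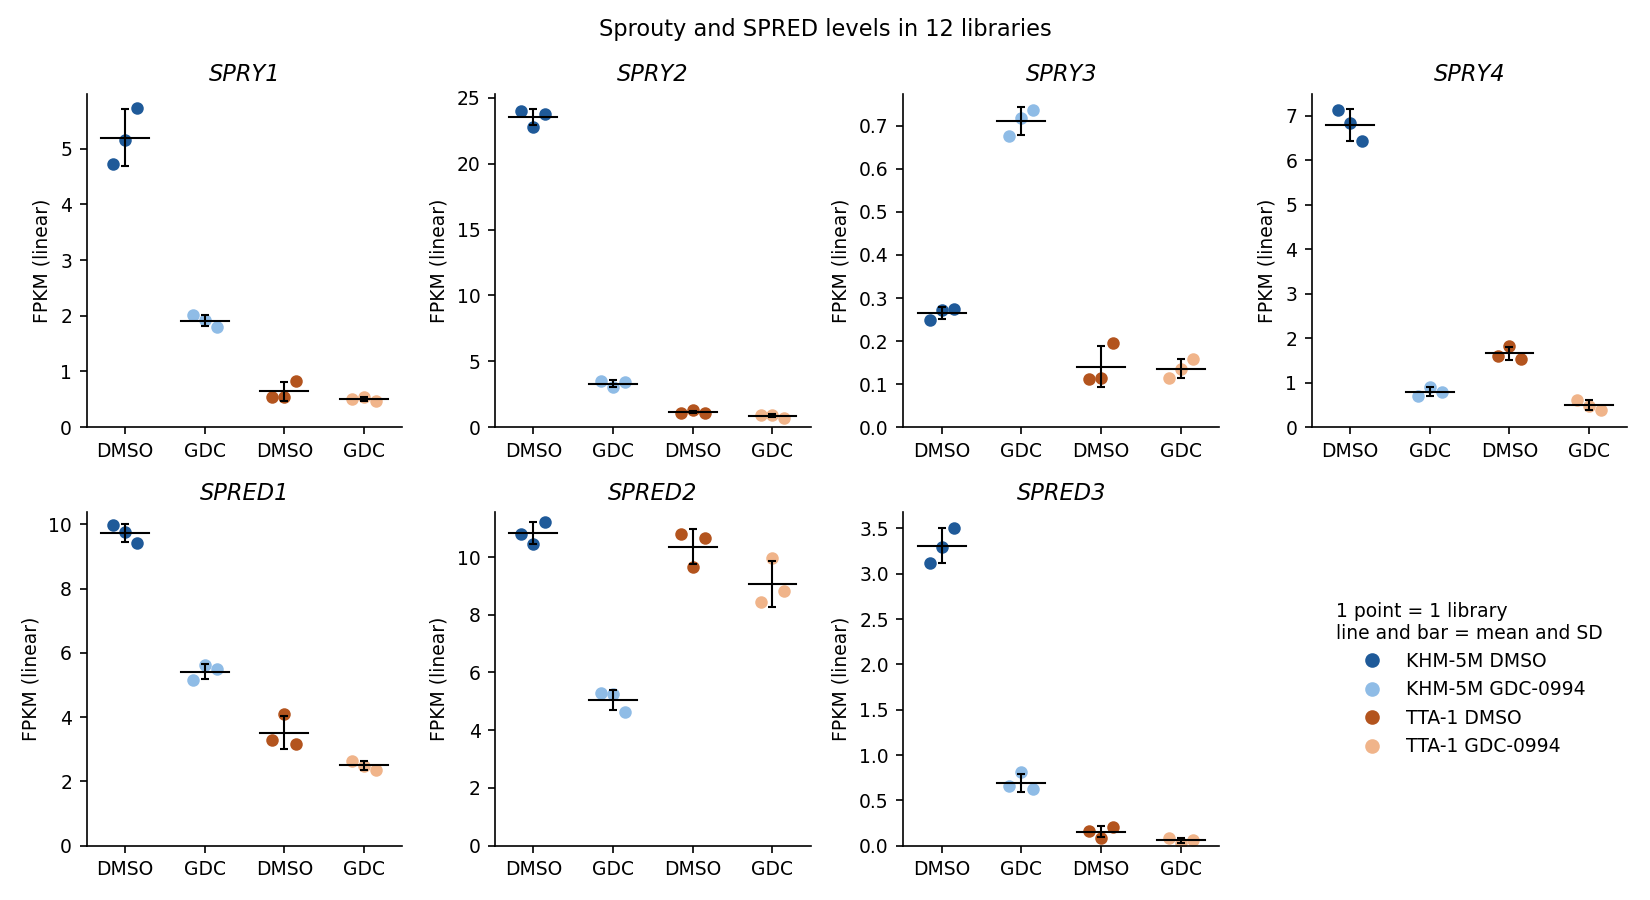
FPKM of each Sprouty and SPRED gene in the 12 libraries (points, 1 per library, on linear axes that start at 0 and differ between panels), with the mean (line) and SD (bar) of 3 libraries per group. In KHM-5M (blue), 6 genes fell under GDC-0994 and SPRY3 rose, as did 25.1% and 24.6% of all genes by the test described below. In TTA-1 (orange) the separation between treatments is plainest for SPRY4.

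Under GDC-0994, 6 of the 7 members fell in KHM-5M and 1 rose. SPRY4 and SPRY2 fell most, to 11.5% and 13.8% of their mean CPM in DMSO, and SPRED3 to 20.6%. SPRY1, SPRED2 and SPRED1 fell less, to 36.1%, 45.8% and 54.7%. SPRY3 rose to 263.4% of its DMSO level. A call is an adjusted p below 0.05 in edgeR's quasi-likelihood test with Benjamini-Hochberg adjustment over all genes tested, and in KHM-5M 25.1% of genes fell and 24.6% rose by that rule. The median log2 fold change of the 7 was -1.47, beside 0.02 for all genes. The share of mitochondrial counts was also higher in the treated KHM-5M libraries, as given above, and its part in the result was not tested.

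SPRY4, a Sprouty protein that restrains growth factor signalling to ERK, had the largest fall in KHM-5M. Its DMSO libraries held 7.14, 6.84 and 6.42 FPKM and its GDC-0994 libraries 0.692, 0.902 and 0.790. Every treated library lay far below every control library. The log2 fold change was -3.12 ± 0.14 (standard error, adjusted p = 1.14e-11), the 92nd lowest of the 16218 genes. The antisense gene SPRY4-AS1, singled out after its values were seen, had 23, 23 and 20 counts in KHM-5M DMSO and 1, 2 and 1 under GDC-0994. It passed the filter on low counts only through the KHM-5M DMSO libraries, so its counts are given with no test. In TTA-1 it had 1, 4 and 0 counts in DMSO and 0, 1 and 2 under GDC-0994. SPRY4 (chr5:142310427-142326455, minus strand in GENCODE 29) and SPRY4-AS1 overlap as genes but share 0 annotated exon bases. The library protocol names no step that marks the strand.

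SPRY2, which binds CBL and GRB2 and is the most studied Sprouty in receptor signalling, was the family's most abundant RNA in untreated KHM-5M. It measured 24.0, 22.8 and 23.8 FPKM in DMSO and 3.50, 3.035 and 3.40 under GDC-0994. The groups stood far apart with little spread within either. Its log2 fold change of -2.86 ± 0.10 (adjusted p = 1.14e-12) was the 137th lowest of all genes. SPRY1, a close relative that also restrains receptor signalling, measured 4.72, 5.155 and 5.73 FPKM in DMSO and 2.01, 1.93 and 1.80 under GDC-0994. The libraries again did not overlap, with a log2 fold change of -1.47 ± 0.14 (adjusted p = 1.99e-07).

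SPRY3, the least abundant Sprouty in KHM-5M DMSO, was the only member of the 7 to rise there. It measured 0.248, 0.271 and 0.274 FPKM in DMSO and 0.675, 0.719 and 0.738 under GDC-0994, from 40 to 44 counts per library to 109 to 116. The treated libraries were all higher, and the log2 fold change was 1.39 ± 0.20 (adjusted p = 1.82e-05). The gene (chrX:155767812-155782459) lies in a region shared by the X and Y chromosomes. How reads that match both copies were counted is not given in the sources used here, which leaves its level uncertain.

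Among the SPRED genes, SPRED3, the member that lacks a working KIT-binding domain, changed most in KHM-5M. It measured 3.12, 3.30 and 3.51 FPKM in DMSO and 0.656, 0.810 and 0.625 under GDC-0994, a log2 fold change of -2.27 ± 0.18 (adjusted p = 1.34e-08). SPRED2, which like SPRED1 inhibits the activation of RAF by RAS, measured 10.8, 10.5 and 11.2 FPKM in DMSO and 5.28, 5.24 and 4.64 under GDC-0994, a log2 fold change of -1.13 ± 0.09 (adjusted p = 2.06e-08). SPRED1, the partner of NF1, measured 9.97, 9.77 and 9.42 FPKM in DMSO and 5.16, 5.62 and 5.48 under GDC-0994, a log2 fold change of -0.87 ± 0.09 (adjusted p = 7.66e-07). The libraries of these 3 genes did not overlap between treatments, and the share of all genes with such a separation was not counted. Both abundant SPRED genes kept about 5 FPKM in treated cells.

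In TTA-1 only SPRY4 and SPRED1 passed the test, and both fell. By the same rule 2.24% of all genes fell in this line and 1.18% rose. The median log2 fold change of the 7 members was -0.39, beside 0.01 for all genes. Both also fell in KHM-5M, so 2 of 7 members fell in both lines, as did 1.36% of all genes. The number of genes that fell in TTA-1 was 364 and depended on single libraries: it was 1726 without DMSO replicate 2, and 228, 226, 213 and 177 without DMSO replicate 1, DMSO replicate 3, GDC-0994 replicate 2 and GDC-0994 replicate 3. The deviations of DMSO replicates 1 and 2 from their group mean followed the GC content of the genes in opposite directions (correlation across 10966 genes 0.656 and -0.642, as a description). Treated KHM-5M libraries showed opposite trends as well, at 0.557 for GDC-0994 replicate 1 and -0.511 for GDC-0994 replicate 3.

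SPRY4 measured 1.60, 1.83 and 1.54 FPKM in TTA-1 DMSO and 0.608, 0.481 and 0.391 under GDC-0994. The treated libraries were all lower, at 29.9% of the DMSO mean CPM. The log2 fold change was -1.74 ± 0.16 (adjusted p = 5.1e-06), the 193rd lowest of the genes tested. SPRED1 measured 3.28, 4.10 and 3.18 FPKM in DMSO and 2.65, 2.47 and 2.36 under GDC-0994. DMSO replicate 2 stood above the other DMSO libraries, and none of the treated libraries reached the lowest of them. The log2 fold change was -0.49 ± 0.10 (adjusted p = 0.0109). This call was lost in a model of the TTA-1 libraries alone (adjusted p = 0.0870), with limma on log2(FPKM + 1) without a filter (0.0538) and without GDC-0994 replicate 3 (0.0598), while the change was -0.39 (adjusted p = 0.00640) without DMSO replicate 2.

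The other 5 members were not called in TTA-1. SPRED3 was close to the limit of detection, with 15, 8 and 20 counts in DMSO and 8, 3 and 5 under GDC-0994. Its log2 fold change was -1.34 ± 0.41 (adjusted p = 0.0851), with a 95% interval from -2.20 to -0.48. It passed the test without DMSO replicate 2 (-1.64, adjusted p = 0.00831), with DESeq2's Wald test (adjusted p = 0.0450) and without a filter on low counts (0.0341). With limma it was smaller and not called, at -0.12 on log2(FPKM + 1) (adjusted p = 0.434 with a filter and 0.669 without) and -0.65 on log2(FPKM + 0.1) (0.146), and in a model of the TTA-1 libraries alone it did not pass the filter. SPRY2 measured 1.105, 1.27 and 1.10 FPKM in DMSO and 0.953, 0.955 and 0.734 under GDC-0994. All treated libraries lay below the controls, by a log2 fold change of -0.39 ± 0.15 (adjusted p = 0.2) that the test did not call. SPRY1 did not overlap either, at 0.544, 0.550 and 0.830 against 0.503, 0.537 and 0.477 FPKM (-0.34 ± 0.21, adjusted p = 0.428). DMSO replicate 3 stood above the other DMSO libraries, and without it the log2 fold change was -0.11 (adjusted p = 0.894). How many of all genes separate in this way in TTA-1 was not counted. The separation of SPRY2 and SPRY1 is therefore a description and not support for a fall.

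SPRED2, the member that TTA-1 expressed most, measured 10.8, 9.65 and 10.7 FPKM in DMSO and 8.43, 9.97 and 8.83 under GDC-0994. The groups overlapped, and the log2 fold change of -0.19 ± 0.09 (adjusted p = 0.284) has a 95% interval from -0.37 to -0.0011. SPRY3 measured 0.112, 0.114 and 0.196 FPKM in DMSO and 0.114, 0.136 and 0.157 under GDC-0994. Its groups overlapped too, with a log2 fold change of -0.06 ± 0.27 (adjusted p = 0.956) and a wide interval from -0.63 to 0.52.

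**Figure D2:**
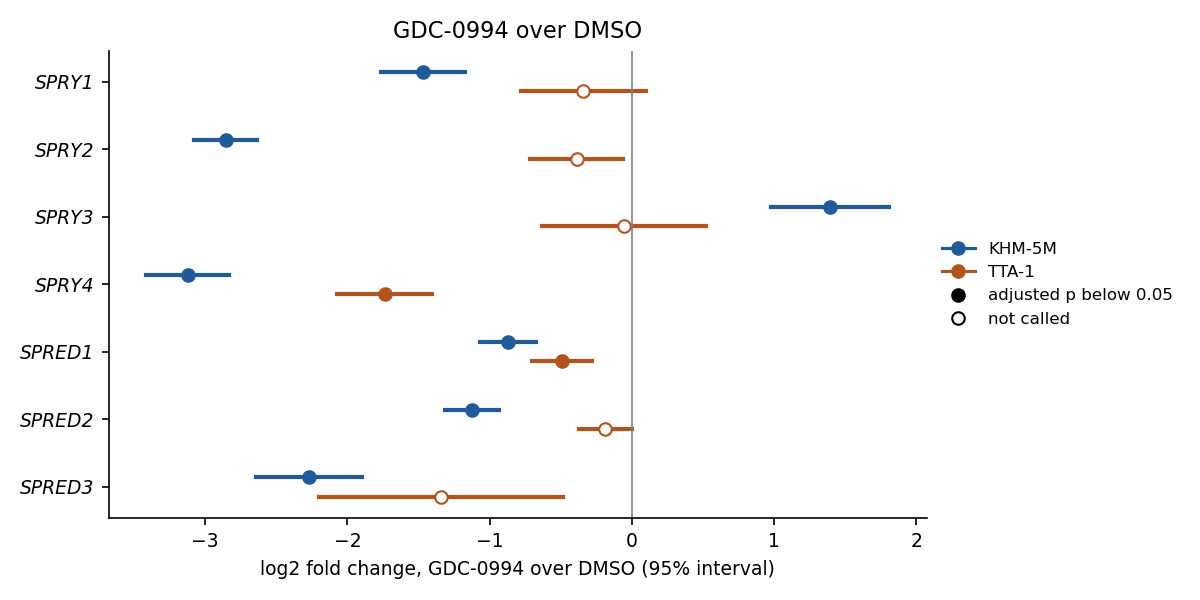
Log2 fold change of GDC-0994 over DMSO for each member in KHM-5M (blue) and TTA-1 (orange). Points are edgeR estimates from 3 libraries per group, lines are 95% intervals, and open points were not called; SPRY2 is at -2.86 in KHM-5M and -0.39 in TTA-1, and SPRY3 is the point to the right of 0.

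The difference of the treatment effects between the lines was tested directly, as an interaction term. It was called for 6 of 7 members, 5 of them more negative in KHM-5M and SPRY3 more positive. Over all genes, 15.6% were more negative and 12.3% more positive in KHM-5M. SPRY2 differed most, by -2.47 ± 0.19 on the log2 scale (adjusted p = 3.49e-08), which is a 5.54-fold larger fall in KHM-5M. SPRY4, which fell in both lines, still differed by -1.39 ± 0.21 (adjusted p = 9.99e-05). SPRY1 differed by -1.13 ± 0.25 (adjusted p = 0.0029) and SPRED2 by -0.94 ± 0.13 (adjusted p = 2.36e-05). SPRY3 differed by 1.45 ± 0.34 (adjusted p = 0.00379).

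The SPRED1 difference lay at the threshold, at -0.38 ± 0.14 (adjusted p = 0.0491), and 18 of 23 alternative settings did not call it, over which the adjusted p ran from 0.00544 to 0.17. Those 18 include leaving out any 1 of the 12 libraries other than TTA-1 DMSO replicate 2. For SPRED3 the difference was -0.93 ± 0.49 (adjusted p = 0.181), with a 95% interval from -1.96 to 0.11, and the low TTA-1 counts leave its size poorly known. It was called in the 3 fits of limma to log2 FPKM, where it was -1.225 or -1.456. It was smaller when 1 library was left out, at -0.50 (adjusted p = 0.629) without TTA-1 GDC-0994 replicate 1 and at -0.61 (adjusted p = 0.365) without TTA-1 DMSO replicate 2.

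Before treatment, 6 members were higher in KHM-5M than in TTA-1, beside 39.6% of all genes, and none was higher in TTA-1, beside 36.8%. SPRED3 differed by 4.40 ± 0.22 on the log2 scale (adjusted p = 1.35e-11), from 43 counts in all in the 3 TTA-1 DMSO libraries and 1033 in KHM-5M. SPRY2 differed by 4.32 ± 0.12 (adjusted p = 6.41e-15), close to 20.0-fold. SPRY1 differed by 2.99, SPRY4 by 2.01, SPRED1 by 1.44 and SPRY3 by 0.88, with standard errors from 0.0962 to 0.241 and adjusted p at or below 0.00338. SPRED2 did not differ detectably, at 0.04 ± 0.09 (adjusted p = 0.694), with an interval from -0.15 to 0.22.

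Under GDC-0994 the lines were closer in 5 of these 6 genes. SPRY2 was 1.85 ± 0.13 higher in KHM-5M on the log2 scale (adjusted p = 1.08e-09) and SPRY4 0.63 ± 0.17 (adjusted p = 0.00269), with SPRED3 at 3.47 ± 0.31, SPRY1 at 1.86 ± 0.18 and SPRED1 at 1.06 ± 0.10. SPRY3 lay further apart, at 2.33 ± 0.22 (adjusted p = 4.4e-08). SPRED2 was now lower in KHM-5M, by -0.90 ± 0.09 (adjusted p = 8.86e-08). In all, 6 members were higher in KHM-5M and 1 in TTA-1, beside 41.0% and 39.1% of all genes. How these gaps changed with treatment is the same interaction as above, so the tests given there apply.

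**Figure D3:**
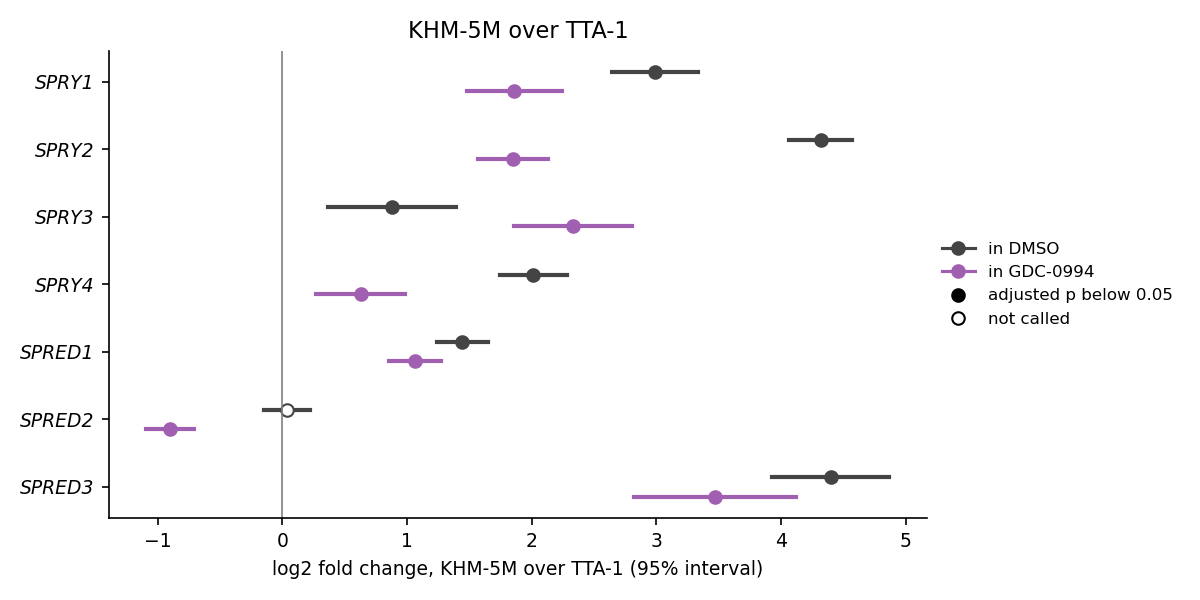
Log2 fold change of KHM-5M over TTA-1 for each member in DMSO (grey) and under GDC-0994 (purple), with 95% intervals from edgeR (3 libraries per group); the open point was not called. SPRY2 moves from 4.32 to 1.85, SPRED2 from 0.04 to -0.90 and SPRY3 from 0.88 to 2.33.

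The make-up of each family shifted with line and treatment. SPRY2 made up 65.7 ± 0.708% of the summed Sprouty FPKM in KHM-5M DMSO and 49.2 ± 2.68% under GDC-0994, while SPRY1 went from 14.5 ± 1.38% to 28.4 ± 1.43% and SPRY3 from 0.740 ± 0.0452% to 10.6 ± 0.646%. SPRY4 was the largest part in TTA-1 DMSO, at 46.1 ± 3.58%, and held 24.3 ± 3.12% after treatment, when SPRY2 led with 43.6 ± 1.80%. Among the SPRED genes, SPRED2 made up 73.8 ± 3.51% of the sum in TTA-1 DMSO and 78.0 ± 2.26% under GDC-0994. In KHM-5M it shared the sum with SPRED1, at 45.4 ± 1.04% and 40.8 ± 1.55% in DMSO. These shares are descriptions, and shares within a sum depend on each other. They also carry the limit of FPKM between genes given above.

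**Figure D4:**
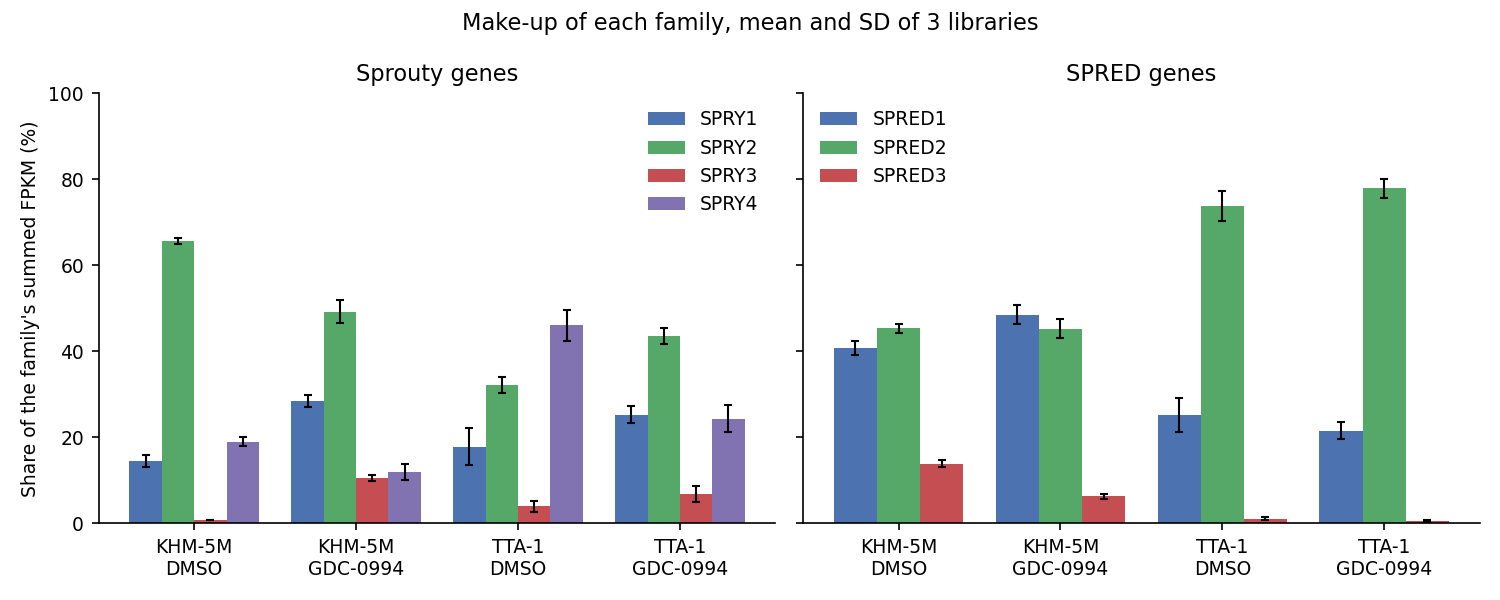
Share of each gene in the summed FPKM of its family, Sprouty on the left and SPRED on the right, as mean and SD of 3 libraries per group. SPRY2 is the tallest Sprouty bar in KHM-5M DMSO at 65.7%, SPRY4 in TTA-1 DMSO at 46.1%, and SPRED2 is the tallest SPRED bar in both TTA-1 groups.

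The genes around the family in the pathway were described from 5 lists, whose counts stand beside 25.1% of all genes that fell and 24.6% that rose in KHM-5M, and 2.24% and 1.18% in TTA-1. Among 13 other inducible inhibitors of receptor and ERK signalling, 8 fell in KHM-5M, where all 13 log2 fold changes lay between -4.11 and -0.05 (median -0.48), and 6 fell and 1 rose in TTA-1 (median -0.29). SH2B3, an adaptor that restrains cytokine receptors, changed by -2.06 in KHM-5M and by -0.49 in TTA-1 on the log2 scale, a fall in both. The ERK phosphatase DUSP4 fell in both lines, with log2 fold changes of -2.64 in KHM-5M and -0.52 in TTA-1. DUSP5, which acts on nuclear ERK, also fell in both, with -2.04 in KHM-5M and -2.19 in TTA-1. DUSP9 rose by 0.53 in TTA-1. The lowest point of this list, the cytoplasmic ERK phosphatase DUSP6, singled out after its values were seen, fell too, by a log2 fold change of -4.11 in KHM-5M and -2.05 in TTA-1.

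Of 14 partners and modifiers of Sprouty and SPRED proteins, 4 rose and 4 fell in KHM-5M, and 1 rose and 1 fell in TTA-1. In KHM-5M both counts are near the share over all genes, so they are not a result about the list, and single genes are named to show their values. The ubiquitin ligase CBLB rose in both lines, by 1.63 ± 0.11 in KHM-5M (10.1 ± 0.149 to 31.3 ± 3.50 CPM, adjusted p = 3.71e-09) and by 0.73 ± 0.10 in TTA-1 (adjusted p = 0.000518). NEDD4L, of the ligase family that ubiquitinates Sprouty proteins, fell in both, with log2 fold changes of -0.54 and -0.50. KBTBD7, the CUL3 adaptor that targets NF1, rose by 0.90 in KHM-5M, and SIAH2 fell by 0.34. Of 9 RAS GTPase-activating proteins, 2 rose and 3 fell in KHM-5M, again near the share over all genes, and 1 fell in TTA-1. RASA3 fell in both lines, with log2 fold changes of -1.51 and -0.51, and NF1, the partner of SPRED1, rose by 0.27 ± 0.10 in KHM-5M (adjusted p = 0.0334). RASAL1 rose by 1.46 and DAB2IP fell by 0.52 in KHM-5M.

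Of 12 adaptors between receptors and RAS, 4 rose and 2 fell in KHM-5M, and 1 rose in TTA-1, and nothing is read from the KHM-5M counts of this list or the next, in which about as many genes were called as over all genes. The exchange factor SOS1 rose by 0.66 and FRS2, the adaptor of FGF receptors, by 0.62 in KHM-5M. GAB2 fell by 0.60 and CRKL fell by 0.18 there. GAB1 rose in both lines, by 0.45 in KHM-5M and by 0.50 in TTA-1. Of 11 RAS and RAF genes, 10 were tested, of which 4 rose and 2 fell in KHM-5M. In TTA-1 edgeR's test and DESeq2's Wald test each called 0 of the 10, whose log2 fold changes lay between -0.16 and 0.26, and 1 had an unadjusted edgeR p below 0.05. In KHM-5M, MRAS, the RAS protein of the SHOC2 phosphatase complex, rose by 1.55 and RRAS by 0.50. HRAS fell by 0.83 there and the scaffold KSR1 by a log2 fold change of -0.94. The medians of these 4 lists were between -0.02 and 0.18 in both lines.

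**Figure D5:**
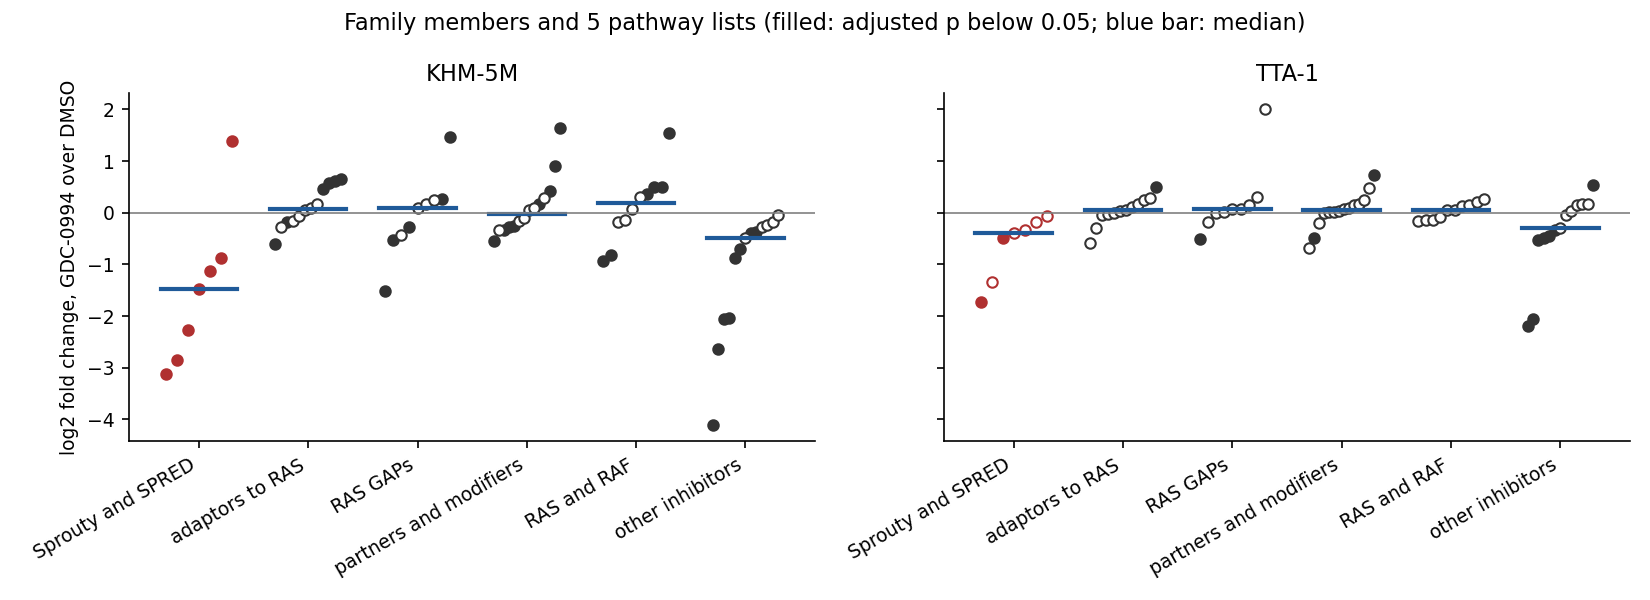
Log2 fold change of GDC-0994 over DMSO for the 7 members (red) and the tested genes of 5 pathway lists (black) in KHM-5M (left) and TTA-1 (right). Filled points were called, blue bars are medians, and the medians of the family are -1.47 and -0.39.

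For each member, the protein-coding genes with the most similar profile were found over the 12 libraries, as the root mean square difference of centred log2 CPM among 12188 genes. The values describe likeness over 4 groups and have no test. SPRED2 had the closest neighbours, ADGRE5 at 0.0907, TLE3 at 0.0946 and WDR4 at 0.104. SPRED1 was nearest to ELK3, an ETS factor, at 0.142, then to CTDSPL and NEDD4L. SPRY4 was nearest to the small MAF protein MAFF at 0.279 and to PHLDA1 at 0.283, followed by EMP1 at 0.400. SPRY2 was nearest to KIF21B at 0.278, SPRY1 to the urokinase receptor gene PLAUR at 0.226, SPRY3 to TRANK1 at 0.201 and SPRED3 to ELOVL2 at 0.392. No member was among the 3 nearest of another: the closest pair within the family was SPRY2 and SPRED3 at 0.609, and the farthest was SPRED2 and SPRED3 at 2.17.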

How the data were processed

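Polyadenylated RNA of 12 libraries was analysed, in 4 groups of 3. The authors deposited whole-number counts for each gene and library, and FPKM, which could be rebuilt from the counts, the gene lengths and 1 library size per column. CASAVA, HISAT2 2.0.5, featureCounts 1.5.0-p3 and GRCh38 are named per the submitters' processing notes, without their roles. All 58735 gene IDs matched GENCODE 29.

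Counts were fitted in edgeR 4.0.16 (R 4.3.3; filterByExpr, TMM, glmQLFit and glmQLFTest) in 1 model of 4 group means, with 5 comparisons and Benjamini-Hochberg adjustment over 16218 genes. CPM were computed with TMM. The code was tested on simulated data. Alternatives were other scalings, filters and models, DESeq2 1.42.0, a replicate block, limma 3.58.1 on log2 FPKM, removal of length and GC trends, and leaving out each library. The members and lists were chosen with earlier results of these data known. Named were all members, up to 2 genes per list, direction and treatment comparison by smallest p, and 3 nearest profiles, of which some are not printed. No protein sequence was used here. 1 thyroid marker is not reported here. The 3 KHM-5M GDC-0994 samples share 1 description, so their replicate numbers came from titles.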

Additional observations from a re-analysis of the deposited data

Results flagged for a closer look

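For 6 members the treatment effect differed between the lines by the test of the difference itself (edgeR, adjusted p below 0.05), which is why they are listed here. By the same test 15.6% of all genes were more negative in KHM-5M and 12.3% more positive. SPRED1 lay at the threshold (edgeR, adjusted p = 0.0491), and 18 of 23 alternative settings did not call it. As KHM-5M minus TTA-1 on the log2 scale, the differences of the members were -2.47 for SPRY2, -1.39 for SPRY4, -1.13 for SPRY1, -0.94 for SPRED2, -0.38 for SPRED1 and 1.45 for SPRY3. Line, genotype and medium cannot be told apart as the source of these differences.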

How the results depend on the processing

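Over 35 results for single members (7 genes in 5 comparisons), 817 values under alternative settings gave 21 lost calls, 6 gained calls and 0 changes of sign among results that were called. The sign turned 4 times among results not called: for SPRY3 in TTA-1 (from -0.06 to 0.26 without DMSO replicate 3 and to 0.04 without GDC-0994 replicate 1) and for SPRED2 between lines in DMSO (from 0.04 to -0.03 without TTA-1 DMSO replicate 2 and to -0.01 with length and GC trends removed). Limma on log2(FPKM + 1), which compresses low values, gave called changes over 1.5 times smaller, such as 0.44 for SPRY3 and -1.35 for SPRED3 in KHM-5M and -0.83 for SPRY4 in TTA-1. The lost calls were those of SPRED1 for the difference (18) and in TTA-1 (3), and the gained calls were those of SPRED3, whose values stand in the report. SPRY3 was filtered out in 3 settings, which left 6 called members in KHM-5M. Across alternatives the members called numbered 1 to 3 in TTA-1, 5 to 7 for the difference, 5 to 6 between lines in DMSO and 6 to 7 under GDC-0994. In TTA-1, 1 member was called with only the groups compared and with limma on log2(FPKM + 1) without a filter, and 1 to 3 when 1 library was left out. The total of 556 genes called in TTA-1 became 856 with DESeq2's Wald test, 1206 without a filter, 206 with only the groups compared, 341 with limma without a filter and 1006 with length and GC trends removed, and ran from 259 to 2620 when 1 library was left out (349 without DMSO replicate 1, 2620 without DMSO replicate 2, 311 without DMSO replicate 3, 311 without GDC-0994 replicate 2 and 259 without GDC-0994 replicate 3). The cause was not tested.

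No pairing by replicate number was seen: deviations correlated at -0.0958 to 0.1768 for the same number and -0.2897 to 0.2963 for different numbers. In some libraries these deviations also followed GC content, so the check cannot show that there was no pairing. With a replicate block, 7849 genes were called in KHM-5M, 529 in TTA-1 and 4225 for the difference, and the calls of members were the same except for SPRED1 in the difference (adjusted p = 0.0659). Scaling moved the median log2 fold change of all genes by over 0.1 only between the lines under GDC-0994, from 0.04 to 0.20 with upper quartile scaling and to 0.17 with library totals, and no call of a member there changed. Depth limits SPRED3 in TTA-1, with 43 and 16 counts per group, and SPRY3 in TTA-1, with 61 and 56.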
